A study of Mus musculus with 8 samples.

Results

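The difference between genotypes in the effect of a microtubule drug was measured for 8817 of the 23356 genes in an RNA-seq table of bone marrow-derived dendritic cells (BMDCs, or DCs). The drug was ansamitocin-P3, a maytansine derivative that binds tubulin and takes microtubules apart, and the genotypes were wild-type (WT) and GEF-H1-/-. For each gene, the response of a genotype was the log2 ratio of FPKM + 1 in treated over control cells, where FPKM are fragment counts per kilobase of transcript, scaled to library size. The difference of differences was the WT response minus the GEF-H1-/- response, so that a value over 0 means a higher treated-to-control ratio in WT DCs. Genes were kept when Cuffdiff, the authors' program, gave a usable value in each of the 4 groups and at least 1 group reached 5 FPKM. Of the others, 107 lacked a usable value, 14355 were under 5 FPKM everywhere and 77 were microRNA or snoRNA genes.

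All mice were on a C57BL/6 background, which the methods give as the substrain C57BL/6N. Marrow was cultured for 6 days with GM-CSF and IL-4, and the DCs of each genotype were then left untreated or given 100 nM ansamitocin-P3 for 5 h. There were 8 libraries, 2 for each of the 4 groups (control WT, treated WT, control GEF-H1-/- and treated GEF-H1-/-). The table holds 1 FPKM value for each gene and group, with the bounds of a 95% interval from Cuffdiff, so no difference below was tested against the spread between duplicates, and no SD, n or p-value is given. The labels do not say whether duplicates came from separate animals or cultures. Each interval of a difference of differences was carried over from the 4 Cuffdiff intervals, taken as independent.

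GEF-H1, the product of Arhgef2, is a guanine nucleotide exchange factor that activates the small GTPase RHOA. It is held inactive on microtubules and is released when they depolymerize. RHOA in turn acts on actin filaments and on kinase cascades, and actin dynamics control the transcription factor SRF through its MRTF cofactors. JNK and other MAP kinases act on AP-1 factors, which bind the promoters and enhancers of many cytokine, protease and feedback genes. Maturing DCs are known for cytokine and chemokine secretion, for costimulatory receptors and for migration towards lymph nodes.

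Arhgef2 itself (chr3:88593105-88649532, GRCm38) was listed at 42.3 FPKM in control and 45.9 FPKM in treated WT DCs, against 4.59 and 4.16 FPKM in GEF-H1-/- DCs. The intervals of the genotypes were far apart, from 34.5 to 49.98 FPKM in control WT and from 3.54 to 5.63 FPKM in control GEF-H1-/- DCs. Its difference of differences was 0.23 (interval -0.31 to 0.76), since the drug left its level much the same in each genotype.

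Over the 8817 genes, the median difference of differences was 0.03, with quartiles at -0.17 and 0.22. Of all these genes, 4822 (54.7%) lay above 0, which is the background for the counts above 0 in the lists below. The extremes reached further on the positive side, to 3.11 for Cxcl3, than on the negative side, to -1.47 for Ung. A value over 1, which is a treated-to-control ratio over 2-fold higher in WT, was found for 108 genes (1.22% of those measured), and a value under -1 for 26 genes (0.295%). The median half-width of the intervals was 0.59, and the interval lay above 0 for 102 of the 108 genes and below 0 for all 26. These genes were picked for values past 1 or -1, beyond that half-width, so these counts follow largely from the threshold. The interval lay wholly above 1 for 27 genes and wholly below -1 for 0 genes. Intervals that leave out 0 were not counted over all 8817 genes, so such counts in the lists below have no background. The last genes over 1 were Slc7a2 (1.011), Nt5e (1.007) and Dcstamp (1.002), and the first ones short of it were Dyrk1b (0.996), Antxr2 (0.992) and Junb (0.9899). On the other side Trib2 (-1.009) was the last gene counted, and Nrp1 (-0.998), Cd24a (-0.997) and Cdca7 (-0.989) were not.

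The balance between the directions depended on the scale of the groups. The FPKM of the 8817 genes summed to 547501 without and 647926 with drug in WT DCs, and to 528999 without and 545003 with drug in GEF-H1-/- DCs. When the groups were rescaled to the same sum, the median moved from 0.03 to -0.16 and 61 genes lay over 1 and 61 under -1, in place of 108 and 26. The 61 genes over 1 were all among the 108, and the 26 genes under -1 all stayed there. This scaling is meant by "after rescaling" below. The gene lists are read against the median of all genes rather than against 0, and genes or lists that pass to the other side under this scaling are named as such. With the rescaled median at -0.16, most genes lay under 0 after rescaling.

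**Figure D1:**
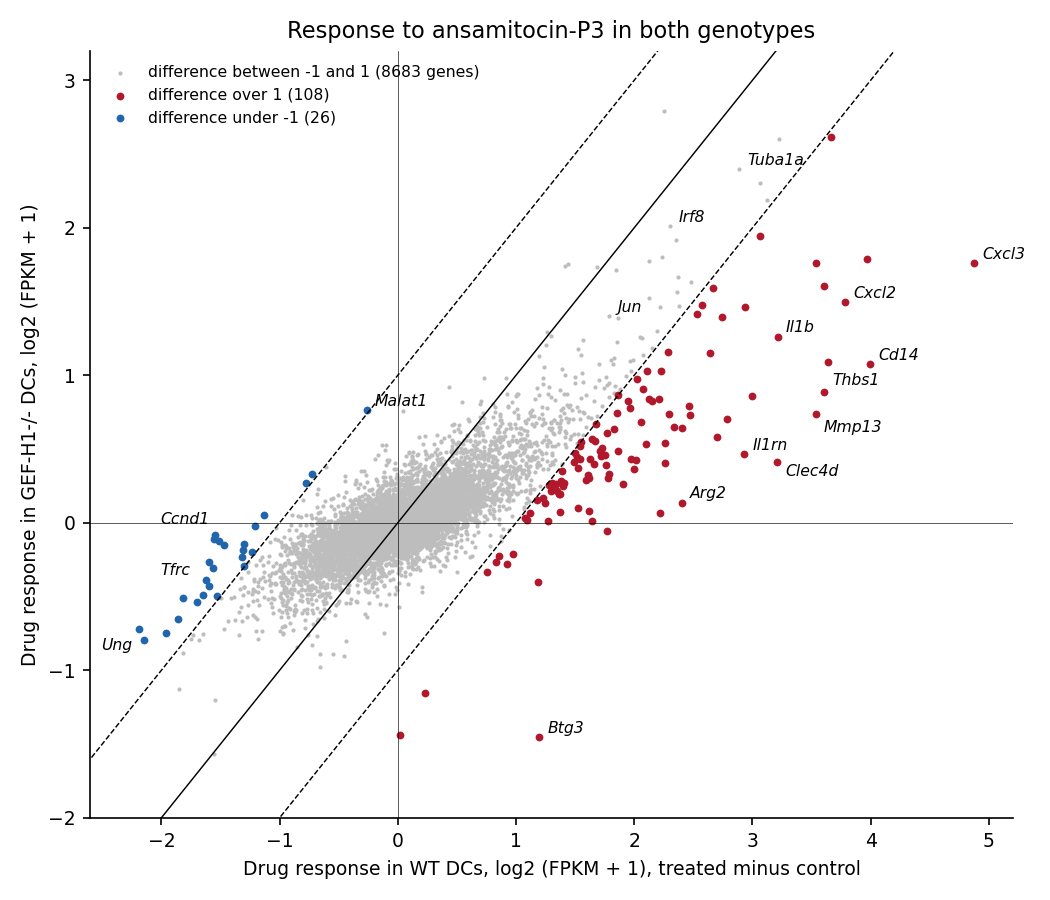
Response to ansamitocin-P3 in WT DCs (x axis) and in GEF-H1-/- DCs (y axis), each as the log2 ratio of FPKM + 1 in treated over control cells, with 1 point for each of the 8817 genes. The solid line marks equal responses and the dashed lines a difference of 1. The 108 genes over 1 (red) sit mostly right of the vertical axis and above the horizontal one, and the 26 genes under -1 (blue) sit left of the vertical axis.

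Most of the 108 genes responded in the same direction in both genotypes, by different amounts. In 98 of them both responses were above 0 (3514 of all 8817 genes). In 10 the level was higher with drug in WT and lower with drug in GEF-H1-/- DCs (1212 of all 8817 genes). Among genes with FPKM inside their own intervals, none ran opposite ways with control and treated intervals apart in both genotypes. The median response of the 108 genes was 1.77 in WT against 0.46 in GEF-H1-/- DCs, while over all genes the medians were 0.03 and -0.00. The WT response was over 1 for 101 of them and the GEF-H1-/- response for 19 (369 and 63 of all 8817 genes). Among the 19 were Cxcl3 (1.76), Inhba (1.76), Osm (1.60) and Il6 (1.59). The 26 genes under -1 had a median response of -1.54 in WT against -0.25 in GEF-H1-/- DCs. In 22 of those both responses were below 0 (3245 of all 8817 genes). The other 4, Fasn, Eif3j2, St3gal5 and Malat1, were lower with drug in WT and higher with drug in GEF-H1-/- DCs (845 of all 8817 genes). The last 3 of them were named after their values were seen.

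The same value can be read as the genotype difference in treated cells minus that in control cells. For the 108 genes the median genotype difference (WT minus GEF-H1-/-, log2) was -0.17 in control cells and 1.14 in treated cells. Treated WT DCs had the higher level for 100 of the 108 genes (4929 of all 8817 genes). The treated intervals of the genotypes were apart for 82 genes, against 32 in control cells (1179 and 349 of all 8817 genes). For 15 of the 108, control GEF-H1-/- cells were already over 2-fold higher than control WT cells (82 of all 8817 genes). Both genotype differences are parts of the value by which the 108 genes were picked, so these counts are not independent of it. In 8 genes treated GEF-H1-/- DCs still had the higher level, so the value over 1 came with a low level in control WT DCs. Mmp13, Cd300ld, Timp1, Ch25h, Ccl7, Mmp14, Ppbp and Gm10872 made up this group, of which Cd300ld, Ch25h and Gm10872 were named after their values were seen. Ch25h, which makes 25-hydroxycholesterol, was listed at 0.769 and 6.44 FPKM in control and treated WT and at 9.06 and 17.9 FPKM in control and treated GEF-H1-/- DCs, a difference of differences of 1.17 with the higher level in GEF-H1-/- cells under both conditions. For the 26 genes under -1 the median genotype difference was 0.09 in control and -1.02 in treated cells. All 26 had the higher treated level in GEF-H1-/- DCs (3888 of all 8817 genes).

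**Figure D2:**
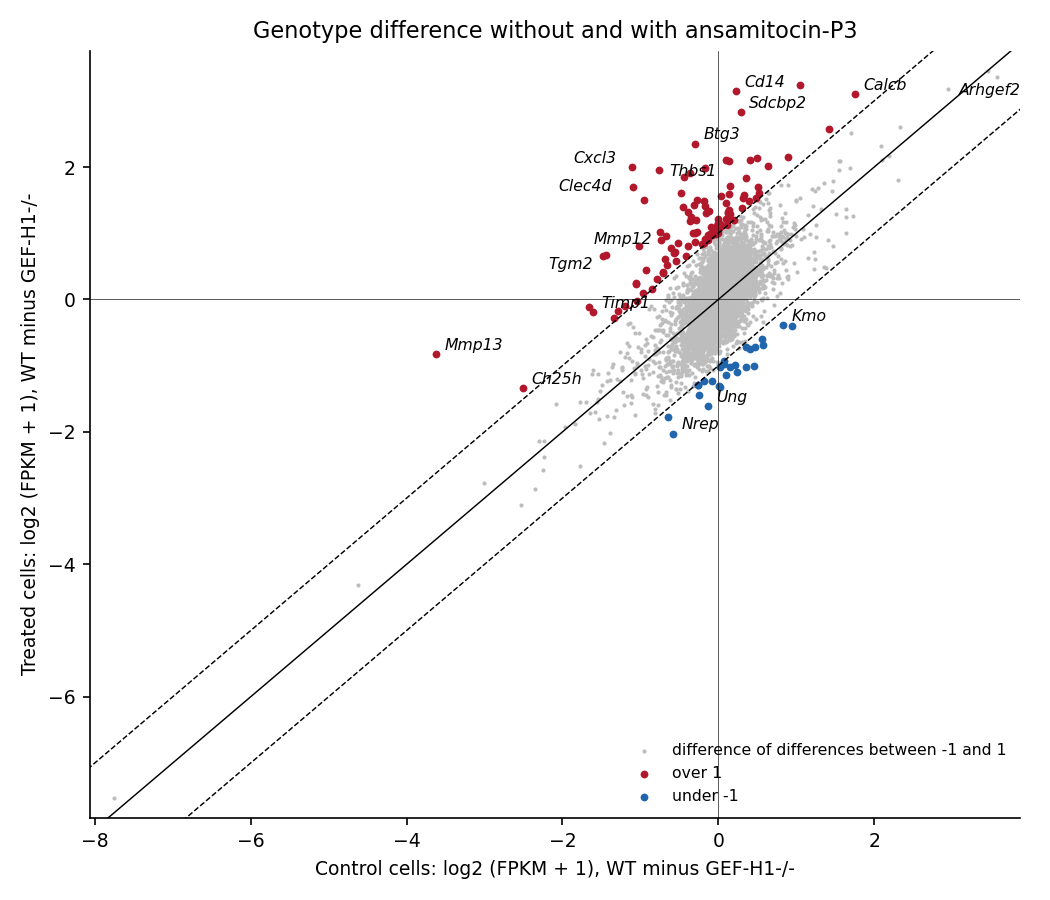
Genotype difference, WT minus GEF-H1-/- in log2 (FPKM + 1), in control cells (x axis) and in treated cells (y axis) for the 8817 genes; the vertical distance from the solid line is the difference of differences and the dashed lines mark 1 and -1. Mmp13 and Ch25h lie far to the left and below 0, whereas Cd14 and Sdcbp2 lie near 0 in control cells and at 3.15 and 2.84 in treated cells.

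Proinflammatory cytokine genes that reached 5 FPKM had a high median. Of 9 such genes, out of 20 on the list, 6 were over 1 (5 after rescaling, without Il6), 8 were above 0, and the median was 1.74. The median depended on the filter: it was 0.40 with a filter of 1 FPKM and 0.26 with none, where the list of proteases and growth factors described below kept 1.11 and 1.004. Il1b, which encodes the cytokine IL-1β, was listed at 25.2 FPKM without and 242 FPKM with drug in WT DCs, and at 22.8 FPKM without and 56.2 FPKM with drug in GEF-H1-/- DCs. Control levels of the genotypes were alike and treated levels were not, and the difference of differences was 1.95 (interval 1.41 to 2.49). Il1a, its neighbour and the gene of IL-1α, went from 6.75 to 42.1 FPKM in WT DCs, against 8.63 to 15.0 FPKM in GEF-H1-/- DCs (1.74, interval 1.16 to 2.33).

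Il1rn encodes the antagonist that blocks the receptor of both. It was the most abundant gene of the list, at 101 and 778 FPKM in control and treated WT and at 197 and 274 FPKM in control and treated GEF-H1-/- DCs, and had the largest value of the list, 2.46 (interval 1.90 to 3.02). Here the control level was higher in GEF-H1-/- and the treated level higher in WT DCs. Osm, the gene of oncostatin M, a cytokine of the IL-6 family, went from 16.9 to 217 FPKM in WT DCs, against 15.7 to 49.9 FPKM in GEF-H1-/- DCs (2.004, interval 1.43 to 2.58). Csf1, the growth factor of macrophages, went from 32.3 to 176 FPKM and from 54.8 to 86.1 FPKM (1.77). Il6 had the smallest value over 1 of these genes, 1.08 (interval 0.37 to 1.79), with 77.7 FPKM in treated WT and 41.0 FPKM in treated GEF-H1-/- DCs. Tnf, by contrast, had the same response of 0.47 in both genotypes, at 13.4 and 18.9 FPKM in WT and 16.2 and 22.9 FPKM in GEF-H1-/- DCs, and a difference of differences of -0.01 (interval -0.60 to 0.59).

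Chemokine genes ranged from the highest value of all genes to values near 0. Their median was 0.71 over 14 measured genes, 12 of them above 0 and 5 over 1. The neutrophil attractants Cxcl3 and Cxcl2 led: Cxcl3 was listed at 3.97 FPKM without and 145 FPKM with drug in WT DCs, and at 9.73 FPKM without and 35.4 FPKM with drug in GEF-H1-/- DCs. Its value of 3.11 (interval 2.44 to 3.79) was the highest of all 8817 genes, and its interval is among the 27 wholly above 1. Cxcl2 went from 3.68 to 63.4 FPKM in WT DCs, against 5.36 to 17.0 FPKM in GEF-H1-/- DCs (2.29, interval 1.58 to 2.99).

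The monocyte and macrophage chemokines Ccl6, Ccl9 and Ccl7 were over 1 from another starting point, since each had the higher control level in GEF-H1-/- DCs. Ccl6 was listed at 787 and 2671 FPKM in control and treated WT and at 1502 and 1968 FPKM in control and treated GEF-H1-/- DCs (1.37), and Ccl7 at 10.0 and 62.7 FPKM and at 25.8 and 70.6 FPKM (1.11, and under 1 after rescaling). Ccl9 had 1.30. Ccl4, Ccl2 and Ccl3 had 0.81, 0.79 and 0.63, with intervals above 0. Ccl17, the most abundant of the 5 chemokines named next at 5778 FPKM in control WT DCs, had -0.06, and Ccl5 (0.26), Ccl22 (0.20), Ccl24 (0.18) and Ccl12 (-0.07) also had intervals that held 0. These 5 genes thus lay within 0.3 of the median of all genes.

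Surface receptors for innate recognition were found among the genes with the highest values. Cd14, the coreceptor that hands lipopolysaccharide to TLR4, was listed at 14.7 FPKM without and 250.1 FPKM with drug in WT DCs, and at 12.4 FPKM without and 27.3 FPKM with drug in GEF-H1-/- DCs (2.92, interval 2.23 to 3.62). Clec4d and Clec4e encode the C-type lectins MCL and Mincle, which pair on the cell surface and bind mycobacterial glycolipid. Clec4d went from 7.72 to 79.5 FPKM in WT DCs, against 17.6 to 23.9 FPKM in GEF-H1-/- DCs (2.79, interval 2.22 to 3.37), and Clec4e from 4.49 to 36.9 FPKM and from 6.68 to 11.5 FPKM (2.09, interval 1.46 to 2.71). In each of these genes the WT response was 2.79 or more on the log2 scale and the GEF-H1-/- response 1.07 or less.

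Of the 17 maturation genes, which include Cd14, 13 were above 0, 1 was over 1 and the median was 0.31. The costimulatory ligand Cd80 came next after Cd14 with 0.97 (interval 0.31 to 1.62), at 37.2 and 139 FPKM in control and treated WT and 23.4 and 44.9 FPKM in control and treated GEF-H1-/- DCs. The related ligand Cd86 had 0.19 and Cd40 had -0.05. Ccr7, the receptor that guides DCs to lymph nodes, had 0.43 (interval -0.19 to 1.053), with 258 and 602 FPKM in WT and 234 and 405 FPKM in GEF-H1-/- DCs.

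**Figure D3:**
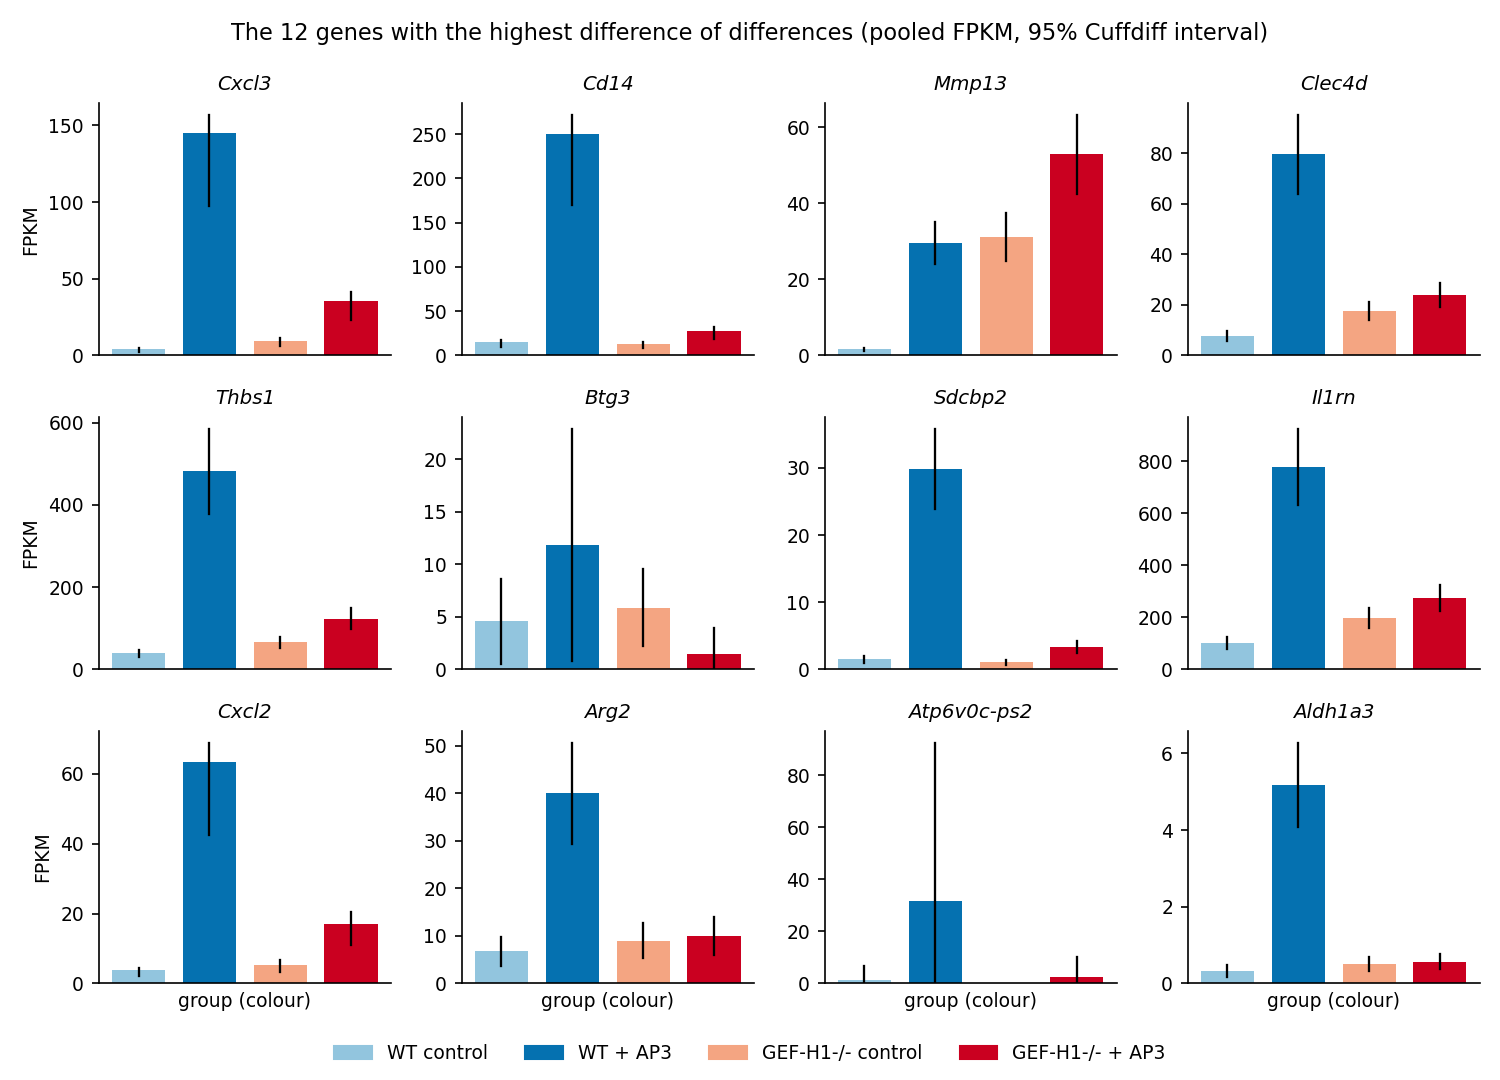
FPKM of the 12 genes with the highest difference of differences in control and treated WT DCs (light and dark blue) and control and treated GEF-H1-/- DCs (light and dark red); bars are the pooled group values and vertical lines the 95% intervals of Cuffdiff, and each panel has its own axis from 0. Treated WT is the tallest bar in 11 of the 12 panels, Mmp13 being the exception, and the intervals of Btg3 and Atp6v0c-ps2 span most of their panels.

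Genes for matrix proteases, their inhibitors, the plasminogen system and growth factors formed the list with the most genes over 1. Of 21 measured genes, 20 were above 0, 12 were over 1 (9 after rescaling) and 0 were under -1, with a median of 1.11. Mmp13, a collagenase, was listed at 1.63 FPKM without and 29.5 FPKM with drug in WT DCs, and at 31.2 FPKM without and 52.8 FPKM with drug in GEF-H1-/- DCs. The lowest of the 4 levels was that of control WT DCs, and the difference of differences of 2.79 (interval 2.25 to 3.33) went with a genotype difference of -3.62 in control cells. With a pseudocount of 0.1 or 5 FPKM the value of Mmp13 was 3.34 or 1.70, both outside that interval. Mmp12, the macrophage elastase, was listed at 233 and 1520.4 FPKM in control and treated WT and at 635 and 951 FPKM in control and treated GEF-H1-/- DCs (2.12, interval 1.47 to 2.77). Mmp19 went from 3.83 to 15.4 FPKM in WT DCs, against 8.76 to 8.41 FPKM in GEF-H1-/- DCs (1.82), and Mmp14 had 1.11. The 4 proteases shared a control level over 2-fold higher in GEF-H1-/- than in WT DCs.

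Growth factors of the list had other starting points. Inhba, the gene of the activin A subunit, went from 16.2 to 199 FPKM in WT DCs, against 19.8 to 69.6 FPKM in GEF-H1-/- DCs (1.78, interval 1.25 to 2.30), and the EGF-family ligand Hbegf from 7.28 to 50.6 FPKM and from 9.13 to 21.5 FPKM (1.49). Control levels of both were close between genotypes. Plaur, the urokinase receptor, was listed at 90.4 and 699 FPKM in WT and 101 and 281 FPKM in GEF-H1-/- DCs (1.47), whereas its ligand Plau had -0.45 (interval -1.03 to 0.14). The plasminogen activator inhibitor Serpinb2 had 1.29, the protease inhibitors Timp3 and Timp1 had 1.29 and 1.42, and Vegfa had 1.13. The interval of Timp1 ran from -0.27 to 3.11. Vegfa and Mmp14 came under 1 after rescaling.

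The promoters of genes at the top of the ranking are shown because several hold letters of the motifs that AP-1, NF-κB or the TATA-binding protein are known for. They are RefSeq promoters (GRCm38.p6, 250 bases before to 50 bases after the start site, plus strand of the genome) of the genes with the highest values that have an entry, other than Btg3, which has several and is not shown. Capitals mark matches to the motifs searched, on either strand. Positions count from the start site, with -1 as the last base before it. The promoter of Cxcl3 (chr5:90785851-90786150) holds TATAAA at -30 to -25 and, on both strands and overlapping, the NF-κB motif from -73 to -63. That of Mmp13 (chr9:7272264-7272563) holds the AP-1 motif as TGACTCA at -35 to -29, TATAAA at -16 to -11 and an ISRE on the reverse strand at -146 to -137. In Sdcbp2 (chr2:151572373-151572672) the AP-1 motif stands as TGAGTCA at -44 to -38, and in Clec4d (chr6:123261857-123262156) an ISRE lies on the reverse strand at 1 to 10.
Cxcl3: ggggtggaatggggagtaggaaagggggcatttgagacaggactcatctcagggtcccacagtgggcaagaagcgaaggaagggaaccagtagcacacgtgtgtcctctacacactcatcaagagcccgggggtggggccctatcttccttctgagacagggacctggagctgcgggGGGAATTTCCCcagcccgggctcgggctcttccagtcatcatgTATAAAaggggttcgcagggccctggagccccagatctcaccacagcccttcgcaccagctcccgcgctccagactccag
Mmp13: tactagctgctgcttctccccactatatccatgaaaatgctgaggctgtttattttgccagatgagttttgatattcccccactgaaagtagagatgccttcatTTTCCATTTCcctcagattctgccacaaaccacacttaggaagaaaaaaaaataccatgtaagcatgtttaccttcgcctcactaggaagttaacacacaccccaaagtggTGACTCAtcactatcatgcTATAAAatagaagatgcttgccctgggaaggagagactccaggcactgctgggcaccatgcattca
Clec4d: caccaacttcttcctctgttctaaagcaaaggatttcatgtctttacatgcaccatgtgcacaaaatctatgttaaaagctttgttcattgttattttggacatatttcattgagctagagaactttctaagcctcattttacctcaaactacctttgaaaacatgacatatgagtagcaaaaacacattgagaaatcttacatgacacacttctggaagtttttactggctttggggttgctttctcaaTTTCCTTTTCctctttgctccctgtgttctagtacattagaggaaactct
Sdcbp2: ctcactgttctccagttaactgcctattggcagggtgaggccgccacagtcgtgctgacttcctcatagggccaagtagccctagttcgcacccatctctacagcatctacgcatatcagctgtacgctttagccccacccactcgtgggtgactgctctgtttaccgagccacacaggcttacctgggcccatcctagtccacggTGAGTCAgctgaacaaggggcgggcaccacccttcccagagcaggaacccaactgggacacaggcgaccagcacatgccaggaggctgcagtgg

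Of the 7149 measured genes with a RefSeq promoter, 6.14% held the AP-1 motif TGANTCA, 8.5% the letters TATAAA, 12.3% the NF-κB motif, 3.85% the ISRE motif, 10.1% the C/EBP motif TTNNGCAA, 3.71% the CRE motif TGACGTCA and 1.62% the CArG box bound by SRF. A comparison of these shares with the genes over 1 or under -1 is void, because an entry was found for only 79 of the 108 and 20 of the 26 genes. A match in these letters is not a binding site.

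Genes of the actin cytoskeleton and known SRF targets were above 0 for 18 of 19 measured members (16 after rescaling), with a median of 0.58 and 2 over 1. Thbs1, the gene of the matrix glycoprotein thrombospondin 1, was listed at 38.7 FPKM without and 482 FPKM with drug in WT DCs, and at 66.3 FPKM without and 124 FPKM with drug in GEF-H1-/- DCs (2.71, interval 2.13 to 3.30). The actin genes were among the most abundant genes of the table. Actg1 went from 2615 to 7395 FPKM in WT DCs, against 2429 to 3378 FPKM in GEF-H1-/- DCs (1.02, under 1 after rescaling), and Actb from 3076 to 6184 FPKM and from 2904 to 3328 FPKM (0.81). Their intervals were wide and held 0, from -0.61 to 2.66 for Actg1. Intervals above 0 were found for tropomyosin Tpm4 (0.97), vinculin (Vcl, 0.83), Srf itself (0.67), the focal adhesion genes Tes (0.67) and Zyx (0.65) and Thbs1. Srf was listed at 18.6 and 38.1 FPKM in WT and 17.1 and 21.7 FPKM in GEF-H1-/- DCs. The MRTF genes Mkl1 (-0.01) and Mkl2 (0.14) were near the median of all genes.

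No AP-1 or ATF gene was over 1: of 17 measured, 14 were above 0 (11 after rescaling) and the median was 0.39. Junb came closest at 0.99 (interval 0.37 to 1.61), with 96.0 and 253 FPKM in control and treated WT and 82.9 and 109 FPKM in control and treated GEF-H1-/- DCs. Fosl2 had 0.76 and Maff 0.72. Jun, the main substrate of JNK among them, went from 28.0 to 99.05 FPKM in WT DCs, against 28.4 to 76.6 FPKM in GEF-H1-/- DCs, a difference of differences of 0.39 whose interval held 0 (-0.24 to 1.01), and Atf3 had 0.49 (interval -0.04 to 1.01). The response of Jun was thus over 1 in both genotypes, at 1.79 and 1.40. NF-κB subunits, regulators and pathway genes were above 0 for 19 of 20 members (13 after rescaling), with 0 over 1 and a median of 0.31. Ripk2 (0.76), Bcl3 (0.69) and Nfkb1 (0.65) had intervals above 0, whereas the inhibitor genes Nfkbia (0.08) and Tnfaip3 (0.17), which NF-κB itself is known to induce, did not.

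The remaining inducible factors held 4 genes over 1 out of 21, with a median of 0.32. Nr4a2 and Nr4a1, orphan nuclear receptors of immediate early type, were listed at 1.59 and 8.69 FPKM and at 3.70 and 10.3 FPKM in control and treated WT DCs. In GEF-H1-/- DCs Nr4a2 was at 0.843 and 1.21 FPKM and Nr4a1 at 1.53 and 1.55 FPKM. Their values were 1.64 (interval 1.17 to 2.11) and 1.26 (interval 0.69 to 1.83), and the treated GEF-H1-/- level of each stayed below the control WT level. Cebpb, a bZIP factor of inflammatory gene programmes, was listed at 92.2 and 305 FPKM in WT and 137 and 187 FPKM in GEF-H1-/- DCs (1.26), a gene whose FPKM lay outside its own Cuffdiff interval in at least 1 group. Ets2 had 1.0502, under 1 after rescaling. At the other end Klf4 had -0.59 (interval -1.19 to 0.01) and Klf10 -0.48.

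MAP kinase phosphatases and other feedback genes were above 0 for 18 of 20 members, with a median of 0.48. Dusp5, which acts on ERK, was listed at 63.0 and 186 FPKM in control and treated WT and 58.7 and 79.7 FPKM in control and treated GEF-H1-/- DCs (1.11). Dusp8, which acts on JNK and p38, was near absent without drug, at 0.0711 and 0.0888 FPKM in control WT and control GEF-H1-/- DCs, and was listed at 12.6 and 5.66 FPKM in treated cells (1.053). Its GEF-H1-/- response of 2.61 was the largest of the 108 genes over 1. Both phosphatases came under 1 after rescaling. Socs3 (0.90), Ier3 (0.86), Zfp36 (0.84), whose product promotes decay of cytokine mRNA, and Dusp1 (0.76) had intervals above 0. Dusp7 stood apart at -0.96 (interval -1.60 to -0.33), with 16.8 and 4.30 FPKM in WT and 16.7 and 9.29 FPKM in GEF-H1-/- DCs.

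NRF2 targets and genes of iron handling had a median of 0.64 over 17 members, 15 of them above 0, also after rescaling. Srxn1, which reduces oxidized peroxiredoxin, went from 28.1 to 102 FPKM in WT DCs, against 37.2 to 58.4 FPKM in GEF-H1-/- DCs (1.19). Hmox1, the heme oxygenase, was listed at 72.5 and 129.9 FPKM in control and treated WT and at 119 and 98.6 FPKM in control and treated GEF-H1-/- DCs (1.098), so its responses had opposite signs. Both were under 1 after rescaling. Fth1, the ferritin heavy chain, went from 1780.5 to 3727 FPKM in WT DCs, against 1463 to 1558 FPKM in GEF-H1-/- DCs (0.97, interval 0.39 to 1.56). Txnrd1 (0.97), Slc7a11 (0.95) and Nfe2l2, the gene of NRF2 (0.91), also had intervals above 0. The iron importer Tfrc, the transferrin receptor, ran the other way at -1.24 (interval -1.87 to -0.60), from 89.2 to 28.3 FPKM in WT DCs, against 83.5 to 63.7 FPKM in GEF-H1-/- DCs.

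Other genes of the top 20 belonged to enzymes and to proteins with less settled roles in DCs. Tgm2, transglutaminase 2, was listed at 67.1 and 544 FPKM in control and treated WT and 189.7 and 345 FPKM in control and treated GEF-H1-/- DCs (2.14, interval 1.53 to 2.75). It was the only gene over 1 of 14 measured genes of IL-4-type activation, whose median was 0.19 and -0.00 after rescaling. Arg2, the mitochondrial arginase, went from 6.75 to 40.0 FPKM in WT DCs, against 8.93 to 9.91 FPKM in GEF-H1-/- DCs (2.27, interval 1.25 to 3.29). Aldh1a3, a retinaldehyde dehydrogenase, was listed at 0.325 and 5.18 FPKM in control and treated WT DCs and at 0.496 and 0.564 FPKM in control and treated GEF-H1-/- DCs (2.16, interval 1.76 to 2.55). For Arg2 and Aldh1a3 the GEF-H1-/- response was 0.14 and 0.06. Aldh1a3 was below the added 1 FPKM in both GEF-H1-/- groups, where this scale understates changes.

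Hilpda, a lipid droplet protein induced by hypoxia, went from 6.00 to 32.4 FPKM in WT DCs, against 8.61 to 11.8 FPKM in GEF-H1-/- DCs (1.85). Sdcbp2, a PDZ protein related to syntenin, was listed at 1.48 and 29.9 FPKM in WT and 1.03 and 3.33 FPKM in GEF-H1-/- DCs (2.55, interval 1.98 to 3.11). The 2 remaining values are less certain. Btg3, an antiproliferative gene, had 2.65 with an interval from 0.53 to 4.78, at 4.59 and 11.8 FPKM in WT and 5.86 and 1.504 FPKM in GEF-H1-/- DCs. Atp6v0c-ps2, by its name a pseudogene of a proton pump subunit, shares sequence with its parent gene, had an interval from -1.48 to 5.85 and was listed at 0.0062 FPKM in control GEF-H1-/- DCs, so reads of the copies may not be told apart in its value of 2.18.

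The 26 genes under -1 included receptors and signalling proteins of myeloid cells, genes of DNA repair and nucleotide synthesis, and genes of lipid metabolism. Ung, the uracil-DNA glycosylase of base excision repair, was listed at 7.66 FPKM without and 0.895 FPKM with drug in WT DCs, and at 8.51 FPKM without and 4.76 FPKM with drug in GEF-H1-/- DCs (-1.47, interval -2.07 to -0.87). Ccnd1, the gene of cyclin D1, went from 19.8 to 6.10 FPKM in WT DCs, against 14.1 to 13.3 FPKM in GEF-H1-/- DCs (-1.47, interval -2.001 to -0.93). Dna2, a helicase and nuclease of replication, had -1.17, and Cad, the enzyme that starts pyrimidine synthesis, had -1.16. In all of them treated WT DCs held the lowest of the 4 levels.

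Ccr2, the receptor for the chemokine CCL2 on monocytes, was listed at 136 and 37.8 FPKM in control and treated WT and at 135 and 94.5 FPKM in control and treated GEF-H1-/- DCs (-1.31, interval -1.95 to -0.67). The genotype difference was 0.01 in control and -1.30 in treated cells. Cd180, a TLR-like receptor, had -1.25, and Mertk, a receptor kinase for uptake of apoptotic cells, had -1.21, from 5.46 to 0.778 FPKM in WT DCs, against 4.56 to 2.53 FPKM in GEF-H1-/- DCs. Tifab, an inhibitor of TRAF6 signalling, went from 45.1 to 9.43 FPKM in WT DCs, against 44.2 to 25.04 FPKM in GEF-H1-/- DCs (-1.35). The RAC GTPase-activating protein gene Chn2 had -1.32, from 28.2 to 9.51 FPKM in WT DCs, against 23.8 to 21.4 FPKM in GEF-H1-/- DCs.

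Lipid and metabolic genes of this group were Lipg, the endothelial lipase (-1.39), Fasn, the fatty acid synthase (-1.19), Ppargc1b, a coactivator of mitochondrial genes (-1.16), and Kmo of the kynurenine pathway (-1.21). Fasn was listed at 18.5 and 7.88 FPKM in control and treated WT and at 22.2 and 23.0 FPKM in control and treated GEF-H1-/- DCs. Nrep, Slc46a3, Wdfy4, Tns1 and Rnase6 had values between -1.44 and -1.08. Wdfy4 went from 54.8 to 23.2 FPKM in WT DCs, against 39.3 to 38.7 FPKM in GEF-H1-/- DCs (-1.19). Nrep and Tns1 were lower in WT than in GEF-H1-/- DCs already without drug, by 0.58 and 0.64 on the log2 scale.

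**Figure D4:**
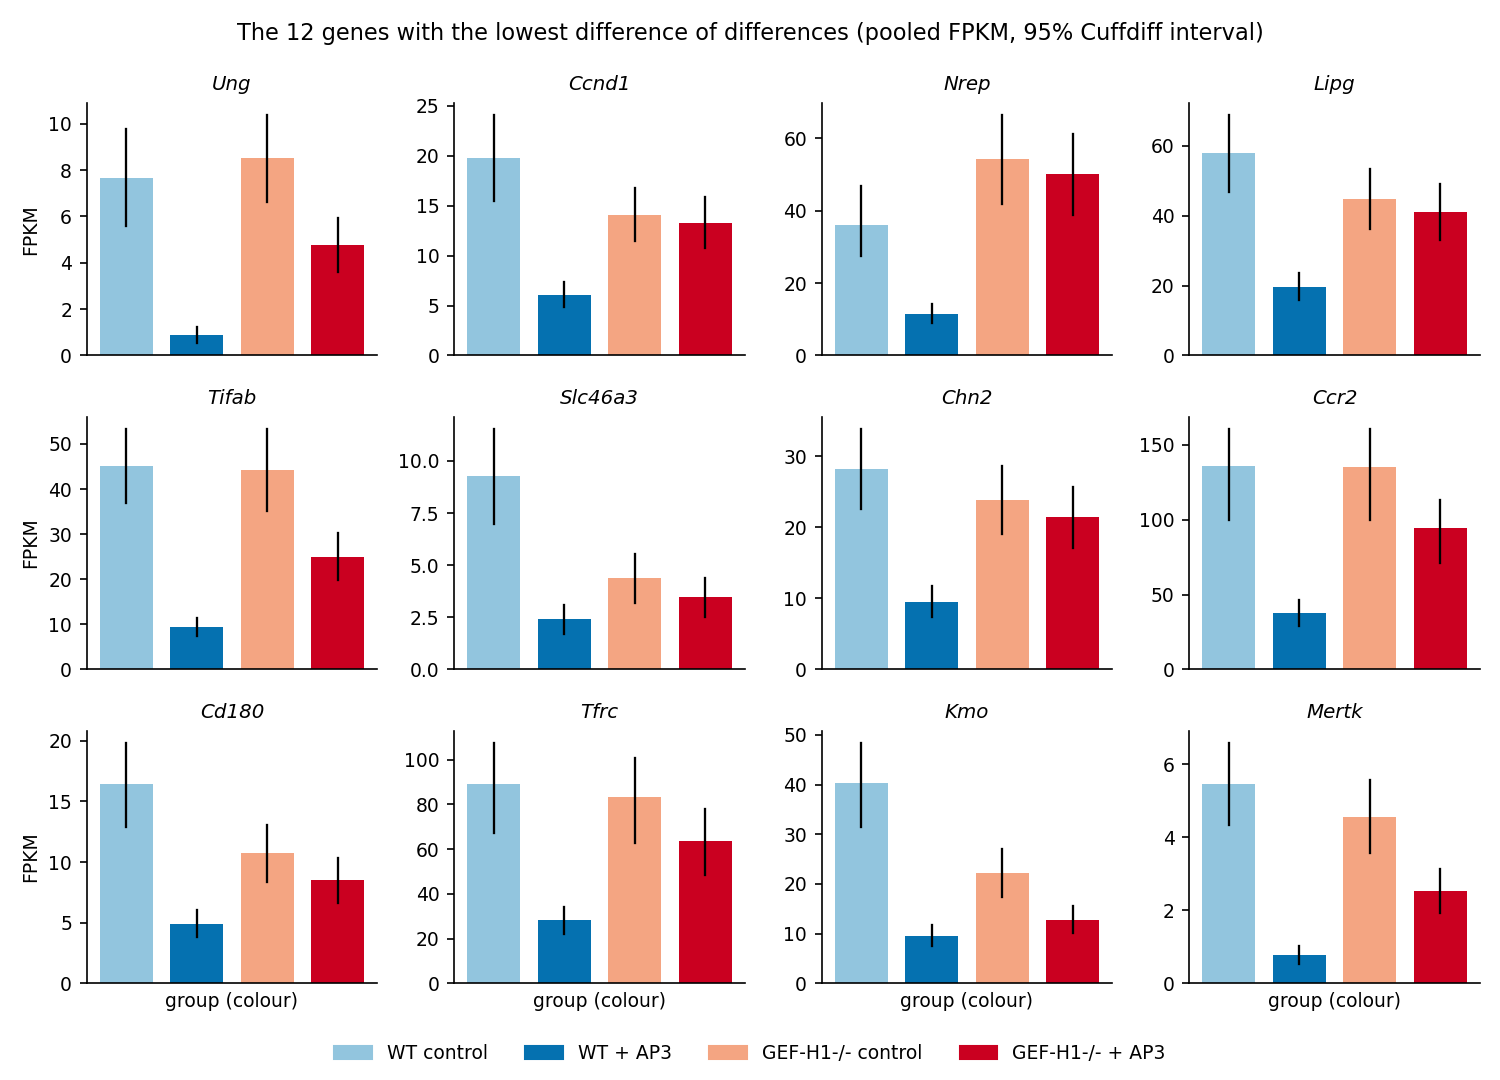
FPKM of the 12 genes with the lowest difference of differences, drawn as in the plot of the highest ones, with pooled group values as bars and 95% Cuffdiff intervals as vertical lines. Treated WT DCs (dark blue) have the lowest bar in all 12 panels, and control and treated GEF-H1-/- DCs (light and dark red) have overlapping intervals in panels such as Ccnd1, Nrep, Lipg and Chn2.

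Below the median of all genes lay several lists of growth-related genes, in each of which few or no members reached -1. All 26 ribosome biogenesis genes had values under 0, from -0.95 to -0.10, with a median of -0.42 and 9 intervals below 0. The polymerase I subunit Polr1a was listed at 7.69 and 3.68 FPKM in control and treated WT and 9.80 and 10.2 FPKM in control and treated GEF-H1-/- DCs (-0.95), and the pseudouridine synthase Dkc1 at 24.2 and 10.2 FPKM and at 37.5 and 31.3 FPKM (-0.91). Their control levels were also lower in WT, and the median genotype difference of the list was -0.41 in control and -0.89 in treated cells. The median response was -0.45 in WT against -0.05 in GEF-H1-/- DCs.

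Of the 20 G1/S and DNA replication genes, 18 were under 0, with a median of -0.30, and Ccnd1 was the only one under -1. Cdc6, which loads the replicative helicase, had -0.51 (interval -0.99 to -0.03). Mitotic genes were under 0 for 19 of 20 members (median -0.27), and none of their intervals left out 0; Mki67 had the lowest value, -0.63 (interval -1.35 to 0.09). Cholesterol synthesis genes were under 0 for 18 of 22 members (median -0.17). After rescaling, 4 ribosome biogenesis genes and Dusp7 lay under -1 as well.

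**Figure D5:**
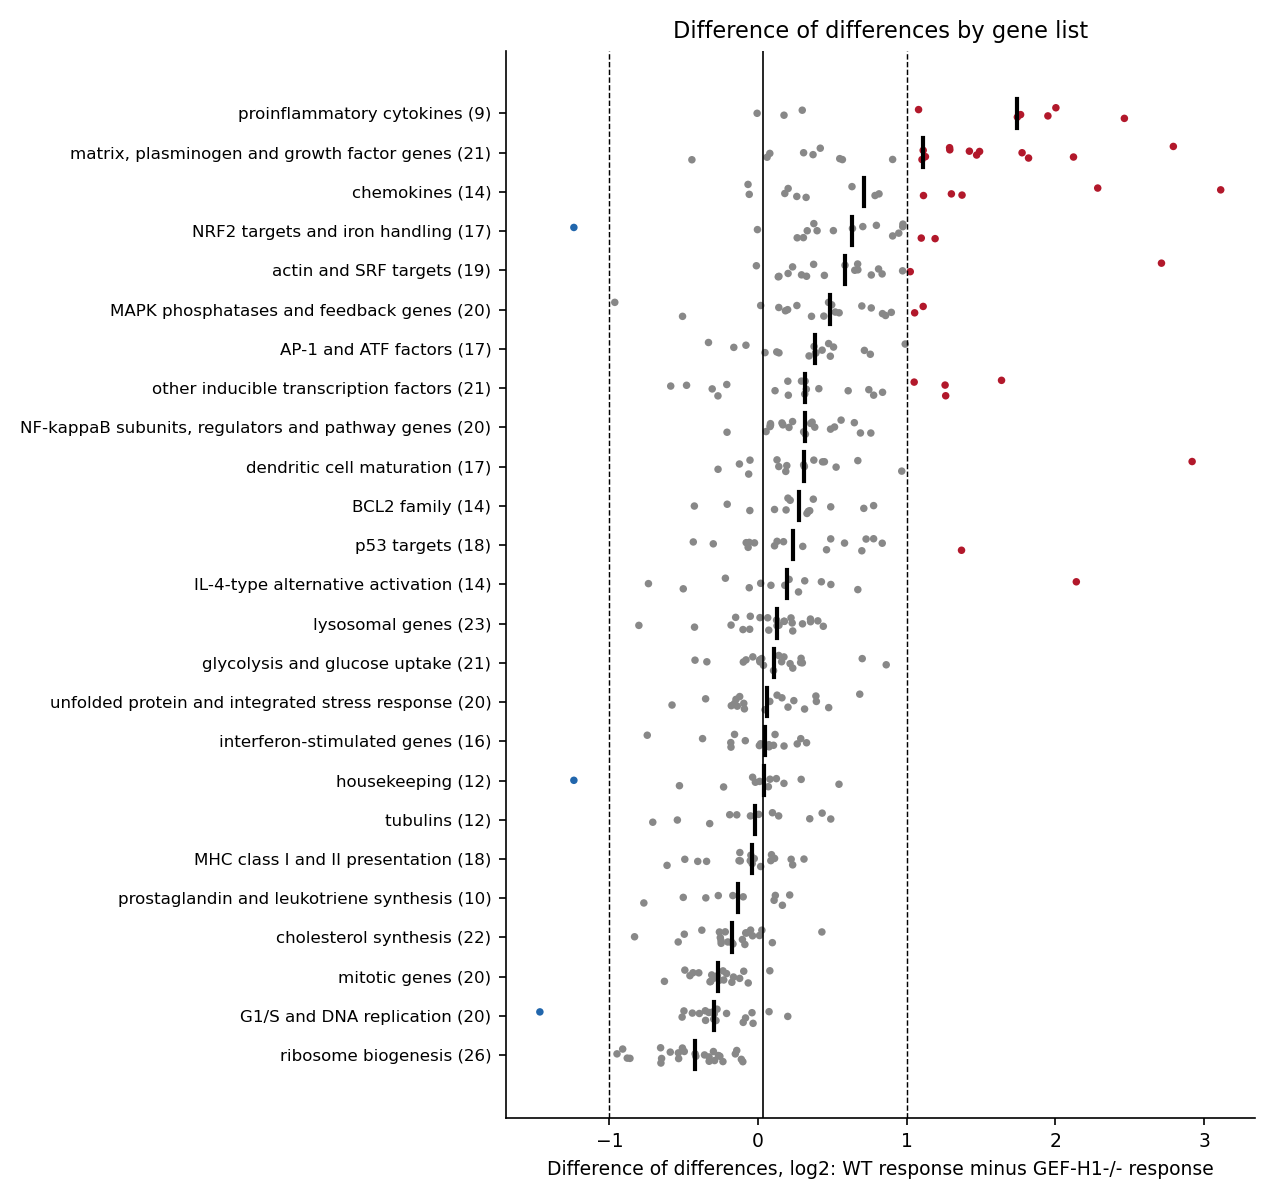
Difference of differences (x axis, log2) of each member of 25 gene lists, with the number of measured members in parentheses and the median as a thick bar. The solid vertical line is the median of all 8817 genes (0.03) and the dashed lines are 1 and -1. Cytokine, protease and chemokine lists lie to the right with medians of 1.74, 1.11 and 0.71, and the ribosome biogenesis list lies to the left at -0.42.

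Several lists lay close to the median of all genes. Tubulin genes had a median of -0.02 over 12 members, while their median response was 1.22 in WT against 1.30 in GEF-H1-/- DCs. Tubb5, for instance, went from 326 to 572 FPKM in WT DCs, against 329 to 575 FPKM in GEF-H1-/- DCs (0.00, interval -0.64 to 0.64). Tuba8 (-0.71) and Tubb2b (-0.54) were the tubulin genes with an interval below 0. The tubulin genes thus gave a drug response of similar median size in both genotypes.

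Interferon-stimulated genes (median 0.05 over 16 members), MHC presentation genes (-0.04 over 18), glycolysis genes (0.10 over 21), the unfolded protein and integrated stress response (0.06 over 20), lysosomal genes (0.13 over 23) and housekeeping genes (0.04 over 12) held 0 genes over 1, and under -1 only Tfrc, which is also on the housekeeping list. After rescaling all these medians were under 0, as was the median of all genes (-0.155). The MHC presentation list lay below that median at -0.232, and the other lists lay between -0.153 (housekeeping) and -0.065 (lysosomal genes). Single members stood out with intervals that left out 0: the glucose transporter gene Slc2a1 at 0.86, the lactate transporter gene Slc16a3 at 0.70, Ppp1r15a, which restarts translation after stress, at 0.68, Usp18, which damps interferon signalling, at -0.75, and the lysosomal lipase gene Lipa at -0.80. p53 targets had a median of 0.24 with Btg2 over 1 (1.37, from 30.4 to 129 FPKM in WT DCs, against 28.4 to 46.2 FPKM in GEF-H1-/- DCs), the BCL2 family had 0.27 with 0 over 1, and prostaglandin and leukotriene genes had -0.13, with Ptgs1 lowest at -0.77.

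The cultures differed between genotypes in markers of other blood cells, and in bulk RNA fewer cells of a type cannot be told apart from less RNA per cell. The summed FPKM of 15 neutrophil and precursor markers was 34111 without and 41050 with drug in WT DCs, and 22830 without and 23261 with drug in GEF-H1-/- DCs, with a median difference of differences of 0.21 (0.01 after rescaling). S100a8 and S100a9 made up most of these sums. In control cells 9 of the 15 markers had the higher level in WT and 6 had it in GEF-H1-/- DCs. Among the 6 were the precursor genes Elane (20.7 FPKM in WT, 45.9 FPKM in GEF-H1-/-), Mpo (26.4 and 63.1 FPKM) and Prtn3 (32.5 and 47.4 FPKM). The sums that follow take in markers under 5 FPKM, whereas the medians cover measured genes only. The sum of 8 eosinophil markers was 1667, 1322, 627 and 583 FPKM in the same order, with Prg2 the largest part of each. All 6 measured ones had values between -0.51 and -0.13. In control cells 5 of the 6 were higher in WT DCs, and Siglec5 was higher in GEF-H1-/- DCs (15.8 FPKM in WT, 24.1 FPKM in GEF-H1-/-). The sum of 13 macrophage markers was 469, 445, 647 and 641 FPKM (median -0.26 over 12 genes). That of 14 mast cell and basophil markers was 208, 233, 400 and 384 FPKM (median 0.09 over 7 genes). That of 9 osteoclast-like markers was 198, 361, 332 and 389 FPKM (median 0.06 over 7 genes). Platelet markers summed to 55.3, 91.7, 150.1 and 162 FPKM over 7 genes, with a median of 0.30 over the 4 measured ones.

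Dendritic cell markers summed to 2053, 2362, 1961 and 2193 FPKM over 14 genes (median 0.05 over the 9 measured ones), with H2-Aa the largest part of each sum. In control cells 4 of the 9 had the higher level in WT and 5 in GEF-H1-/- DCs. Single markers varied more: Irf8 was listed at 18.8 and 96.8 FPKM in control and treated WT and 24.8 and 103 FPKM in control and treated GEF-H1-/- DCs, and Cd24a at 481 and 199.7 FPKM and at 505 and 419.5 FPKM. Flt3, Clec9a, Xcr1, Itgae and Cd209a of this list were under 5 FPKM in every group. Of all cell type markers, Hdc (1.63), Ppbp (1.053), Dcstamp (1.002) and Mertk (-1.21) were past 1. Hdc, the histamine-forming enzyme, was listed at 8.70 and 29.2 FPKM in control and treated WT and 14.4 and 14.5 FPKM in control and treated GEF-H1-/- DCs. T and NK, B and plasma and erythroid cell markers had 4, 2 and 2 measured members, with medians of 0.26, -0.57 and 0.49. Sex-linked genes had a median of -0.00. The part of these cell types in the results above was not tested.

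Some genes over 1 lay next to each other on the chromosomes. Of 107 with a RefSeq position, 25 (23.4%) had another such gene within 100 kb. Of the 8656 other measured genes with a position, 247 (2.85%) had a gene over 1 within that distance, and 0 of the 25 genes under -1 with a position had another gene under -1 there. Most of the pairs are members of 1 gene family, which often lie in tandem. Among the pairs were Il1a with Il1b, Cxcl3 with Ppbp, Clec4d with Clec4e, Mmp13 with Mmp12, Ccl9 with Ccl6, and the metallothionein genes Mt1 with Mt2. Not all pairs are named here. Clec4d (chr6:123262107-123275268) and Clec4e (chr6:123281789-123289871) are 6521 bases apart and Mmp13 and Mmp12 61064 bases. Mmp19 and Tmem198b overlap, so that reads in their shared stretch may have been counted for either, since the counting is not stated to use strand. Mt1 and Mt2, chosen after their values were seen, bind zinc and copper and were among the genes with opposite responses, Mt2 at 85.8 and 197 FPKM in WT and 109 and 82.2 FPKM in GEF-H1-/- DCs (1.59), though both had FPKM outside their own Cuffdiff intervals in at least 1 group.

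In 4 equal bins of mean FPKM, 1.497%, 0.907%, 0.953% and 1.54% of genes were over 1 from the lowest to the highest bin, and the median value went from -0.05 to 0.11. In GENCODE transcripts, the 103 genes over 1 with an entry had a median of 6 exons. The 25 genes under -1 with an entry had 10 exons, and all 8638 measured genes with an entry had 9. The median gene length, taken from RefSeq positions where a gene had one, was 14.2, 23.9 and 21.7 kb in the same order. The AU-rich heptamer TATTTAT, which occurs in unstable cytokine mRNAs, was found after the stop codon in 33.0% of the genes over 1, 44.0% of those under -1 and 26.6% of all genes. Longer stretches hold it more often, and per kilobase it occurred 0.527, 0.435 and 0.282 times. Of the 108 genes 104 and of the 26 genes 24 were annotated as protein coding.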

How the data were processed

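RNA-seq was performed on polyadenylated RNA with strand-specific, paired-end libraries, and the authors computed the deposited FPKM with Cuffdiff (version 1.05 and build mm10 in the submitters' processing notes), as 1 pooled value with a 95% interval per gene and group. The aligner and annotation of this table are not given in the sources used here. Columns for WT cells name no genotype and were assigned by elimination; 0 columns of per-sample values were left unused. Library depth is unknown, since FPKM keeps no totals.

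From the deposited FPKM, the difference of differences was taken on log2 (FPKM + 1), a scale that understates changes of low genes, and counted past 1 or -1. No test was possible on pooled values. Intervals treat the 4 Cuffdiff errors as independent on the log2 scale. The members, the 37 gene lists and the tests were chosen with earlier results of these data known. Genes named were Arhgef2, the 20 highest and 20 lowest with loci of at least 400 bases, members of a described list, and the 5 highest with a RefSeq promoter, leaving out 1 gene; other names are marked as chosen after their values were seen. Some genes and 1 list that these rules cover are not reported here. Names matched RefSeq (GRCm38.p6) by symbol for 8229 genes, by synonym for 534 and not for 54. The computation was tested on simulated data (Python 3.11.15, pandas 2.3.3, numpy 2.4.6). Alternatives were pseudocounts of 0.1 and 5 FPKM, filters of 1, 10 and no FPKM, keeping small RNA genes, 2 rescalings of the groups, a threshold of 1.5-fold and a requirement that intervals leave out 0.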

Additional observations from a re-analysis of the deposited data

How the results depend on the processing

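Of the 108 genes over 1 and the 26 under -1, the counts moved by over 1.5 times under a pseudocount of 0.1 FPKM (50 genes under -1), a pseudocount of 5 FPKM (59 and 10), with microRNA and snoRNA genes kept (49 under -1), with a threshold of 1.5-fold (442 and 262) and with the groups rescaled to the same sum of FPKM (61 and 61, median -0.16). A pseudocount of 0.1 FPKM gave 125 genes over 1 and keeping small RNA genes 140. The counts from filters of 1, 10 and no FPKM, rescaling to the median ratio, leaving out loci under 400 bases and intervals that leave out 0 lay between 93 and 121 genes over 1 and between 19 and 31 under -1. For Arhgef2 and the 20 genes at each end of the ranking, of 364 values under the alternatives, 353 lay within the interval of the reported value and 0 changed sign. Of 333 list medians, 276 moved by at most 0.1 and 15 changed sign; signs of single list members were counted only for rescaling to the same sum, in the report. No paired analysis was possible because the pooled columns carry no replicate numbers, and for the same reason no library could be left out. Depth, and with it the precision of low genes, is unknown.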

Other observations

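Among the 77 microRNA and snoRNA genes at or over 5 FPKM in some group, which the report leaves out, 32 had a difference of differences over 1 and 23 under -1, and 59 were listed at 0 in at least 1 group.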
